A study of Mus musculus with 8 samples.

Results

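The 8 retina libraries of this series fell into 4 with little and 4 with abundant transcript of Rph3a, the gene of the vesicle protein rabphilin 3A. Membership was chosen by a measured value: a library was Rph3a-low where Rph3a took fewer than 10 counts per 1000000 of its column total (CPM), and Rph3a-high where it took more. Rph3a had 2762, 2038, 2954 and 2845 counts in PBS replicates 1, 3 and 4 and sIVs replicate 1, which is 200.1, 123, 200.2 and 195 CPM. It had 119, 65, 42 and 58 counts in PBS replicate 5 and sIVs replicates 3, 4 and 5, which is 7.34, 4.67, 2.62 and 4.12 CPM. The libraries nearest to the boundary were thus PBS replicate 5 below it and PBS replicate 3 above it. These values are a description and were not tested.

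All libraries came from mouse retina, the neural tissue that lines the eye, and were made from poly(A)-selected RNA with a strand-marking protocol. The labels sort them into 4 libraries labelled sIVs (small intracellular vesicles, particles taken from inside cells) and 4 labelled PBS (phosphate-buffered saline), each set numbered 1, 3, 4 and 5. No strain, genotype, age, dose, route or injury is given in the labels, and the numbered biosamples are not said to come from separate animals, so p-values measure the spread between these libraries, which may be technical. The split was partly confounded with treatment: 3 of 4 Rph3a-low libraries carried the label sIVs and 1 carried PBS, and the reverse held for the Rph3a-high libraries. Both libraries numbered 1 were Rph3a-high and both numbered 5 were Rph3a-low, while numbers 3 and 4 were Rph3a-high in PBS and Rph3a-low in sIVs. Since the split was drawn from these libraries, each p-value describes this division of them and is no test of a condition that the study set. Whether the mice of both classes shared 1 genetic background was not tested. Values below are in the order PBS replicates 1, 3 and 4 and sIVs replicate 1 for Rph3a-high, and PBS replicate 5 and sIVs replicates 3, 4 and 5 for Rph3a-low.

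Rabphilin 3A binds the vesicle GTPases Rab3 and Rab27 and the membrane fusion protein SNAP-25, and takes part in the docking and release of synaptic vesicles. It also lies in the postsynaptic density of excitatory synapses, where it binds NMDA receptors. Next to its gene on mouse chromosome 5 lies a cluster of 2'-5' oligoadenylate synthetase genes (Oas), which interferon induces and which sense double-stranded RNA. Oas1c belongs to that cluster. Saa3 on chromosome 7 encodes serum amyloid A 3, an acute-phase protein made in inflammation.

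The start regions of Rph3a and Oas1c are shown because the neighbours stood at opposite levels in the split, and that of Saa3 because it was given with them. Each spans 250 bases before to 50 bases after the RefSeq start (GRCm38.p6), read 5′ to 3′ on the minus strand: chr5:121010043-121010342 for Rph3a, chr5:120812465-120812764 for Oas1c and chr7:46715627-46715926 for Saa3. Capitals mark the core of the interferon-stimulated response element (2 runs of GAAA with any 2 bases between them), searched on both strands.
Rph3a: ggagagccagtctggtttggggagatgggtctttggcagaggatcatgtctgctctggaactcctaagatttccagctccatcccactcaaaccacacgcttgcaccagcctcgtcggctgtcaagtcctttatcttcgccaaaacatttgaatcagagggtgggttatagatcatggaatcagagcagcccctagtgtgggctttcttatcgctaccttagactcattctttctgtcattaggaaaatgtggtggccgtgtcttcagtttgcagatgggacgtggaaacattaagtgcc
Oas1c: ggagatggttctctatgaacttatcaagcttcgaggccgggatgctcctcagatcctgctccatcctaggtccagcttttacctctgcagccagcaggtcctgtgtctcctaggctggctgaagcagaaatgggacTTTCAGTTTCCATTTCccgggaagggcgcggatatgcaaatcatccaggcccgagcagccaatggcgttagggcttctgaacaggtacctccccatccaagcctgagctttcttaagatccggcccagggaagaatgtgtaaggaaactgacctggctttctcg
Saa3: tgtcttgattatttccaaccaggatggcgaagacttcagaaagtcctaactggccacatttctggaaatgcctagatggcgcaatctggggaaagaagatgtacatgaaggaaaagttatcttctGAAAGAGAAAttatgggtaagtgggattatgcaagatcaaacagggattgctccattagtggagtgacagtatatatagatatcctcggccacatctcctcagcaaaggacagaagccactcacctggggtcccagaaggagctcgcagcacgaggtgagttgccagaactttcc
The Oas1c window held 2 matches, which share 4 bases, on the strand opposite to the gene. The Saa3 window held 1 match and the Rph3a window held 0. The element occurred in 1131 of 32851 RefSeq windows of the same length (3.44%). No window of the 3 genes held the NF-kB motif GGGANTTCC (1.68% of all windows), the AP-1 motif TGACTCA (5.20%), the C/EBP palindrome TTGCGCAA (0.183%) or the TATA motif TATAAA (13.6%), each searched on both strands. A match is a description of these letters, not of a bound site.

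Across all genes, no transcript passed the test between Rph3a-low and Rph3a-high retinas once Rph3a itself was left out. Over 17003 genes, the quasi-likelihood test of edgeR made 0 calls (0%) at an adjusted threshold of 0.05, the smallest value being 0.539. Without adjustment 1177 genes (6.92%) lay under 0.05, of which 773 (4.55%) were higher and 404 (2.38%) were lower in Rph3a-low libraries. With column totals as the only scaling, 77.3% of such genes were higher, against 65.7% with the TMM scaling used here. The 2 classes did not overlap for 678 genes (3.99%), with 362 (2.13%) higher and 316 (1.86%) lower in Rph3a-low libraries. DESeq2 called 2 genes, Gm42656 and Saa3 (1480 genes at an unadjusted p under 0.05). Each passed the filter on low counts only through the class where it is high, which selects for a difference, and Gm42656 lies inside Rph3a. The same libraries split by treatment label gave 255 genes at an unadjusted p under 0.05 and 0 past the adjusted threshold.

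The count at an unadjusted p depended on single libraries. Leaving out PBS replicate 1 gave 455 genes, leaving out sIVs replicate 1 gave 436 and leaving out sIVs replicate 5 gave 618. It went up to 1767 when PBS replicate 3 was left out and to 2837 when sIVs replicate 3 was. With the treatment label as a covariate it was 806.

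Rph3a, scaled like the other genes below (CPM over the TMM-normalized library size), stood at 208, 118, 198 and 203 CPM in the Rph3a-high libraries and at 7.15, 4.61, 2.75 and 3.98 CPM in the Rph3a-low libraries. PBS replicate 3 lay apart from the other Rph3a-high libraries, at 57.9% of their mean of 203 ± 5.15 CPM (SD, n = 3). Per gene length, Rph3a had 38.6 ± 9.11 FPKM (fragments per kilobase, scaled to library size) in the Rph3a-high and 0.978 ± 0.399 FPKM in the Rph3a-low libraries (SD, n = 4 each).

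Oas1c (chromosome 5, 120800194 to 120812514, mm10, minus strand), 128 kb from Rph3a, had the reverse order. It stood at 0.604, 31.9, 2.75 and 1.22 CPM in the Rph3a-high libraries and at 52.9, 55.7, 85.9 and 61.6 CPM in the Rph3a-low libraries. The classes did not overlap, and PBS replicate 3 lay between the other 3 Rph3a-high libraries and the Rph3a-low ones, as it did for Rph3a, at 49.9% of the Rph3a-low mean. The log2 difference, Rph3a-low minus Rph3a-high, was 2.78 ± 0.97 (SE; 9.13 ± 15.2 against 64.0 ± 15.0 CPM, SD, n = 4 each), which did not pass (edgeR adjusted p = 0.539). Without PBS replicate 3 it was 5.37, and Oas1c passed (edgeR adjusted p = 0.0271), the single gene to do so in that setting. With the treatment label as a covariate it was 3.60. Over the other settings its adjusted p ran from 0.111 (limma-voom) to 0.970. Within each treatment label the difference in mean log2 CPM was 3.70 for PBS and 5.63 for sIVs. Their shared sign follows from the lack of overlap, and each rests on 1 library of the rarer class. Per gene length, Oas1c had 3.74 ± 6.24 FPKM in Rph3a-high and 26.1 ± 5.97 FPKM in Rph3a-low libraries (SD, n = 4 each).

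Other genes of the cluster did not share the order of Oas1c. Oas1b, 116 kb from Rph3a, stood at 0.604, 8.26, 6.50 and 1.64 CPM in Rph3a-high and at 4.69, 4.32, 4.58 and 5.22 CPM in Rph3a-low libraries; the deposited table classes it as a polymorphic pseudogene. The Rph3a-low libraries were close together and lay between PBS replicates 3 and 4 above and PBS replicate 1 and sIVs replicate 1 below (log2 difference 0.13 ± 0.62, SE; edgeR adjusted p = 0.922). Oas1a, which lies 33.0 kb from Rph3a, was not tested because only 2 libraries reached the level that the filter on low counts asks of 4. It had 0, 59, 73 and 2 counts in Rph3a-high libraries and 0 counts in all 4 Rph3a-low libraries. PBS replicates 3 and 4 thus held nearly all Oas1a counts. Oas3 and Oas2, which encode the larger synthetases, had log2 differences of 0.59 ± 0.54 and 0.47 ± 0.48 (SE). Without PBS replicate 3 these were 1.46 and 1.03, and neither passed (edgeR adjusted p = 0.468 and 0.482). The Oas1 genes are close copies of each other, so reads can be shared among them and the level of each is uncertain. Of the 13 Oas and RNase L genes listed, 7 could be tested and 0 passed. All 7 had a positive log2 difference, as had 52.0% of all genes (median 0.59, against 0.02 for all genes). Only Oas1c, which was given with the split, had classes without overlap (14.3%, against 2.13% of all genes higher without overlap).

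**Figure D1:**
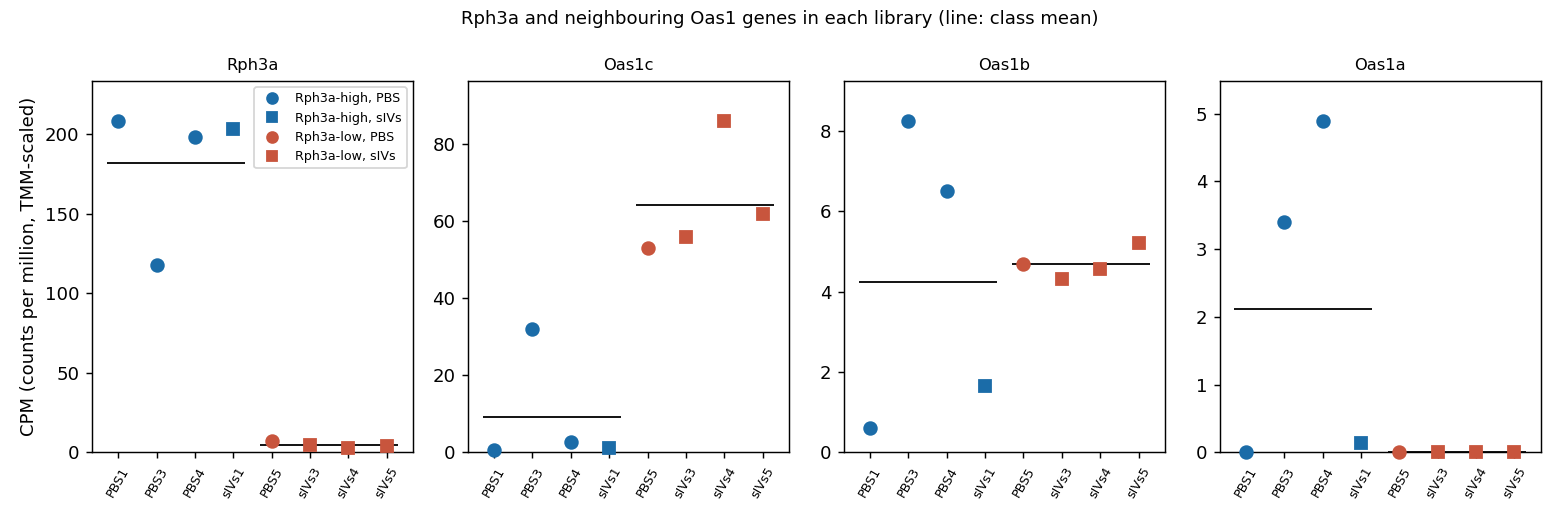
Level of Rph3a, Oas1c, Oas1b and Oas1a in each library (y axis, TMM-scaled CPM, linear from 0; x axis, library), with Rph3a-high libraries in blue, Rph3a-low in red, PBS as circles, sIVs as squares and class means as lines. PBS replicate 3 stood at 118 CPM for Rph3a and 31.9 CPM for Oas1c, between the other Rph3a-high libraries and the Rph3a-low ones, while Oas1a counts were nearly confined to PBS replicates 3 and 4.

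The gene of smallest p, Gm42656, lies inside Rph3a and is not a separate measure of the split. It is an unclassified transcript on the same strand (chromosome 5, 120970043 to 120972347), and in the GENCODE M21 annotation it lies in an intron of Rph3a, between exons ending at 120963953 and starting at 120973298, overlapping 0 exons. It had 13, 16, 11 and 11 counts in Rph3a-high libraries and 0 in each Rph3a-low library. Against a floor of 3 counts over the 4 Rph3a-low libraries together, it was at least 17.1-fold higher in Rph3a-high libraries. That ratio covers counting error only. PBS replicate 3 did not stand apart here, at 0.924 CPM against 0.738 to 0.981 CPM in the other Rph3a-high libraries.

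Away from Oas1c and Gm42656, the surroundings of Rph3a were like the rest of the genome in the share of genes that differed. Within 1 Mb, 34 genes were tested, and 4 had an unadjusted p under 0.05 (11.8%, against 6.92% of all genes): Gm42656, Oas1c, Slc8b1 and Aldh2. Slc8b1, a mitochondrial sodium-calcium exchanger gene, and Aldh2, a mitochondrial aldehyde dehydrogenase gene, had log2 differences of 0.60 ± 0.24 and 0.41 ± 0.16 (SE), and their classes overlapped. Within 5 Mb, 149 genes were tested, 10 had an unadjusted p under 0.05 (6.71%) and 7 had classes without overlap (4.70%, against 3.99% of all genes). Gm42656 and Oas1c are in both counts. The log2 difference exceeded 1 in either direction for 3 of the 149, or 2.01%, against 2.48% of all genes, and these were Gm42656, Oas1c and the small nuclear RNA gene Gm23458. The median log2 difference of the 149 was -0.04.

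Genes flanking Rph3a did not pass the test. Ptpn11, a tyrosine phosphatase gene and the nearest tested gene beyond the end of Rph3a opposite to the Oas cluster, stood at 193, 195, 188 and 185 CPM in Rph3a-high and at 206, 189, 121 and 186 CPM in Rph3a-low libraries (log2 difference -0.12 ± 0.15, SE). The low value belonged to sIVs replicate 4. Dtx1, a ubiquitin ligase gene on the far side of the Oas cluster, stood at 70.2, 67.8, 59.3 and 57.0 CPM and at 71.3, 66.1, 69.1 and 65.3 CPM, with a log2 difference of 0.10 ± 0.10 (SE). Farther out, Orai1, a calcium channel gene 2005 kb away, had no overlap between the classes, at 7.29 to 9.05 CPM in Rph3a-high and 9.995 to 15.8 CPM in Rph3a-low libraries (log2 difference 0.55 ± 0.18, SE; edgeR adjusted p = 0.539). Ccdc62 and Wsb2 also had no overlap, with log2 differences of -0.49 ± 0.19 and 0.18 ± 0.09 (SE). Slc8b1, Aldh2, Orai1, Ccdc62, Wsb2, Ptpn11 and Dtx1 were picked after their values were seen.

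**Figure D2:**
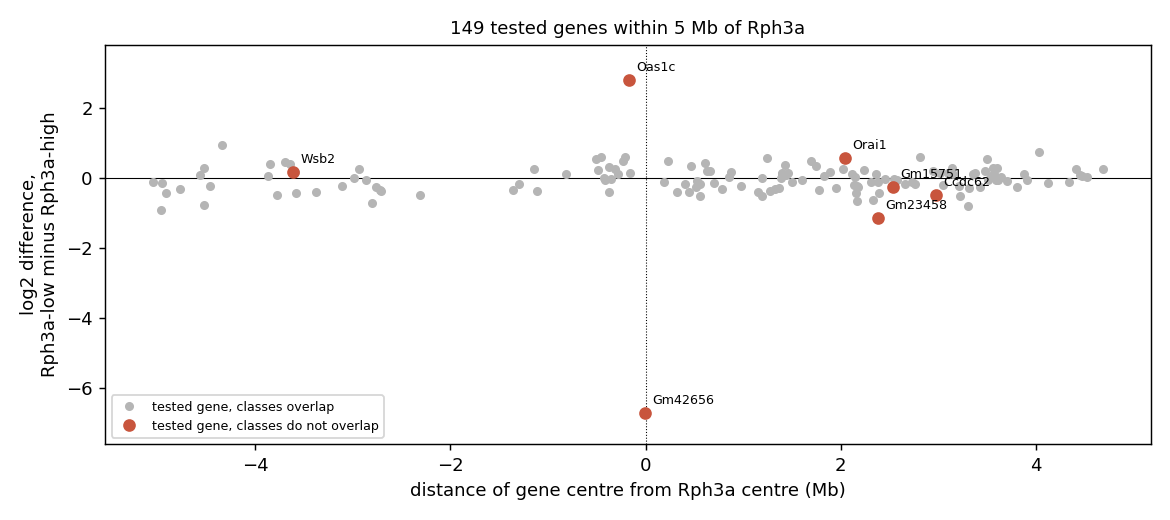
Log2 difference, Rph3a-low minus Rph3a-high (y axis, fitted by edgeR), of the 149 tested genes within 5 Mb of Rph3a against the distance of their centres from that of Rph3a (x axis, Mb), with genes whose classes do not overlap in red. Oas1c at 2.78 and Gm42656, whose fitted value rests on 0 counts in all Rph3a-low libraries, lie away from the other genes.

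By chromosome, the genes without overlap were spread over the genome. Their share lay between 2.78% (chromosome 15) and 4.95% (chromosome 5) of the genes tested on each nuclear chromosome. Chromosome 5 had 57 such genes of 1152, chromosome 7 had 64 of 1306 (4.90%) and chromosome 2 had 61 of 1300 (4.69%). The 57 include Gm42656, which lies inside Rph3a, and the place of chromosome 5 above chromosome 7 rests on it. At an unadjusted p under 0.05, chromosome 5 had 78 genes (6.77%), below the 6.92% of all genes. In tiles of 5 Mb with at least 20 tested genes, the tile of Rph3a held 6 genes without overlap of 109 (5.50%). Gm42656 and Oas1c were among the 6. The tile ranked 90 of 325, where the median tile had 3.70% and the highest, on chromosome 13 from 10 to 15 Mb, had 4 of 22 (18.2%). Counts on chromosome 5 other than Rph3a took 5.51% ± 0.0621 of all counts in Rph3a-high and 5.47% ± 0.124 in Rph3a-low libraries (SD, n = 4 each; two-sided exact permutation p = 0.657, adjusted p = 0.821).

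**Figure D3:**
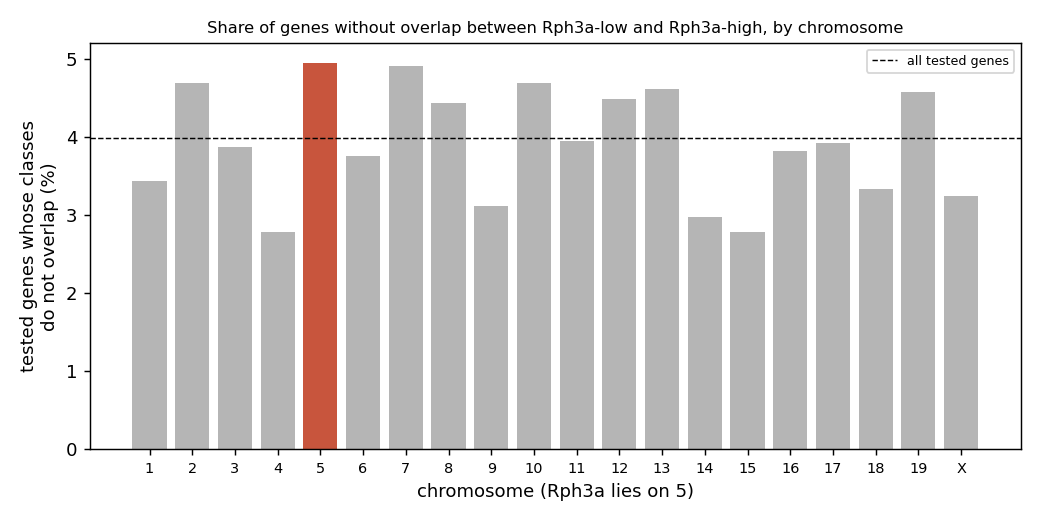
Share of tested genes whose classes do not overlap (y axis, percent, from 0) on each nuclear chromosome (x axis), with chromosome 5 in red and the share over all tested genes as a dashed line. Chromosome 5 has the highest bar, 4.95%, next to 4.90% on chromosome 7 and 3.99% over all genes. Its place above chromosome 7 rests on Gm42656, which lies inside Rph3a.

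Depth did not differ between the classes beyond the spread of the libraries. Totals ran from 13803958 to 16622259 counts, with an exact permutation p of 0.943 (two-sided, over 70 arrangements, of which the smallest p is 0.0286). Mitochondrial genes took 2.42% ± 0.114 of the counts in Rph3a-high and 2.81% ± 0.292 in Rph3a-low libraries (SD, n = 4 each; exact permutation p = 0.0857). The adjusted p over the 5 properties compared was at least 0.429. Defining genes of retina were present in all 8 libraries: the photoreceptor arrestin gene Sag stood between 3871 and 6759 CPM, the amacrine cell gene Gad1 between 299 and 347 CPM and the ganglion cell gene Rbpms between 38.9 and 53.2 CPM. sIVs replicate 4 stood apart in genes of the pigment epithelium, the layer behind the photoreceptors: Rpe65 was at 60.1 CPM there and at most 4.12 CPM elsewhere, and Ttr at 150 CPM and at most 14.8 CPM.

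Beyond the locus, Saa3 (46711998 to 46715700) had the smallest p. It stood at 0, 0.404, 0.603 and 0.358 CPM in Rph3a-high libraries, from 0, 7, 9 and 5 counts, and at 2.58, 1.21, 5.23 and 6.59 CPM in Rph3a-low libraries, from 43, 17, 80 and 96 counts. Every Rph3a-low library was above every Rph3a-high library, and sIVs replicate 3 was the lowest of the Rph3a-low libraries. The log2 difference was 3.45 ± 0.71 (SE; edgeR adjusted p = 0.539), and 3.27 without sIVs replicate 4. DESeq2 gave an adjusted p of 0.00497, and the adjusted p over the other settings ran from 0.294 to 0.970. Saa3 reached the filter level in 0 Rph3a-high and 4 Rph3a-low libraries, so its presence among the tested genes already depended on the Rph3a-low libraries.

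The acute-phase list around Saa3 had 16 of its 30 genes tested, with 0 past the threshold. Of the 16, 15 had a positive log2 difference, as had 52.0% of all genes. The median was 0.98 (0.74 without sIVs replicate 4), against 0.02 for all genes. At an unadjusted p under 0.05, 3 were higher (18.75%, against 4.55% of all genes). Saa3 is 1 of the 3, and it passed the filter only through Rph3a-low libraries. Cebpb, a transcription factor gene of the acute-phase response, stood at 4.30, 11.8, 8.72 and 5.15 CPM in Rph3a-high and at 15.6, 10.3, 30.1 and 17.2 CPM in Rph3a-low libraries. Its classes overlapped, since sIVs replicate 3 lay below PBS replicate 3 (log2 difference 1.28 ± 0.39, SE; edgeR adjusted p = 0.539). Lcn2, which encodes the iron carrier lipocalin 2, stood at 2.11, 91.4, 34.7 and 10.7 CPM and at 61.1, 52.1, 209 and 108 CPM. PBS replicate 3 was thus among the Rph3a-low libraries for Lcn2, while PBS replicate 1 and sIVs replicate 1, both Rph3a-high, were the 2 lowest. Lcn2 was picked after its values were seen.

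Interferon, gliosis and antigen presentation genes had positive log2 differences throughout, against 52.0% positive among all genes, and none passed the threshold. All 36 interferon response genes had a positive log2 difference (median 0.66) and 1 of them an unadjusted p under 0.05 (2.78%, below the 4.55% higher among all genes). All 24 reactive gliosis genes were positive (median 0.64, 4 or 16.7% at an unadjusted p under 0.05), as were all 18 class I antigen presentation genes (median 0.91, 4 or 22.2% at an unadjusted p under 0.05). None passed the adjusted threshold, and 0 members of these 3 lists had classes without overlap. Summed over the interferon list, PBS replicate 1 and sIVs replicate 1 were at 188 and 253 CPM, PBS replicates 3 and 4 at 1024 and 757 CPM, and the Rph3a-low libraries at 449 to 1043 CPM. PBS replicate 3 was the second highest of the 8 libraries in that sum. In the sums of the interferon, acute-phase, gliosis, antigen presentation and microglial lists the 2 libraries numbered 1 were the lowest; their part in the differences was not tested.

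Genes of microglia and macrophages, the resident immune cells of retina, lay mostly higher in Rph3a-low libraries, none past the threshold. Of 24 tested, 22 had a positive log2 difference (median 0.93, and 0.85 without sIVs replicate 4), 10 were higher at an unadjusted p under 0.05 (41.7%, against 4.55% of all genes) and 4 had classes without overlap in that direction (16.7%, against 2.13% of all genes). Among the 4 were Cd74, Laptm5 and Ly86, and 0 passed the adjusted threshold. Cd74, the invariant chain of class II antigen presentation, stood at 0.0754, 5.43, 1.68 and 0.715 CPM in Rph3a-high and at 12.3, 6.17, 7.45 and 22.4 CPM in Rph3a-low libraries (log2 difference 2.56 ± 0.81, SE; edgeR adjusted p = 0.539). Laptm5, a lysosomal membrane protein gene of leukocytes, stood at 4.83, 16.5, 14.4 and 10.4 CPM and at 22.1, 18.4, 19.5 and 25.9 CPM (log2 difference 0.89 ± 0.32, SE). PBS replicate 1 was lowest for both. The microglial genes Cx3cr1 and P2ry12 had overlapping classes, with log2 differences of 0.54 ± 0.35 and 0.21 ± 0.27 (SE). P2ry12 was highest in sIVs replicate 1, an Rph3a-high library, at 7.80 CPM. In bulk tissue, fewer cells of a type and less RNA per cell cannot be told apart. The list sums ran from 75.7 to 338 CPM in Rph3a-high and from 299 to 570 CPM in Rph3a-low libraries.

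Matrix genes that a dissection can carry from sclera, ciliary body and vessels showed a different set of libraries. All 11 tested members had a positive log2 difference (median 1.28, and 1.38 without sIVs replicate 4), 9 at an unadjusted p under 0.05 (81.8%, against 4.55% of all genes), and 3 had classes without overlap (27.3%, against 2.13%): Ogn, Mgp and Igfbp2. None passed the adjusted threshold. Ogn, which encodes the small proteoglycan osteoglycin, stood at 0.302, 0.520, 0.603 and 0.501 CPM in Rph3a-high and at 7.09, 1.13, 1.05 and 4.94 CPM in Rph3a-low libraries (log2 difference 2.86 ± 0.68, SE; edgeR adjusted p = 0.539). PBS replicate 5 and sIVs replicate 5 were high, and sIVs replicates 3 and 4 lay just above the Rph3a-high libraries. Only Rph3a-low libraries brought Ogn past the filter on low counts, so the share of 27.3% counts a gene selected for a difference. Mfap4, a microfibril protein gene, stood at 0.377, 0.924, 2.08 and 0.572 CPM and at 19.2, 0.496, 0.523 and 20.8 CPM, so only the 2 libraries numbered 5 were high. Of the list, Lum, the gene of lumican, had 0 counts in 6 of 8 libraries. The list sums were 122 to 134 CPM in Rph3a-high libraries, 256 and 259 CPM in the libraries numbered 5, and 141 and 192 CPM in sIVs replicates 3 and 4. The part of this tissue in the class differences was not tested.

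Pigment epithelium genes were high in a single library, sIVs replicate 4. The 12 tested members had a median log2 difference of 1.45, and of 0.34 without sIVs replicate 4, with 0 members without overlap. Likewise the medians of 24 respiratory chain and 24 ribosomal protein genes were 0.43 and 0.48, and 0.03 and 0.10 without sIVs replicate 4.

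**Figure D4:**
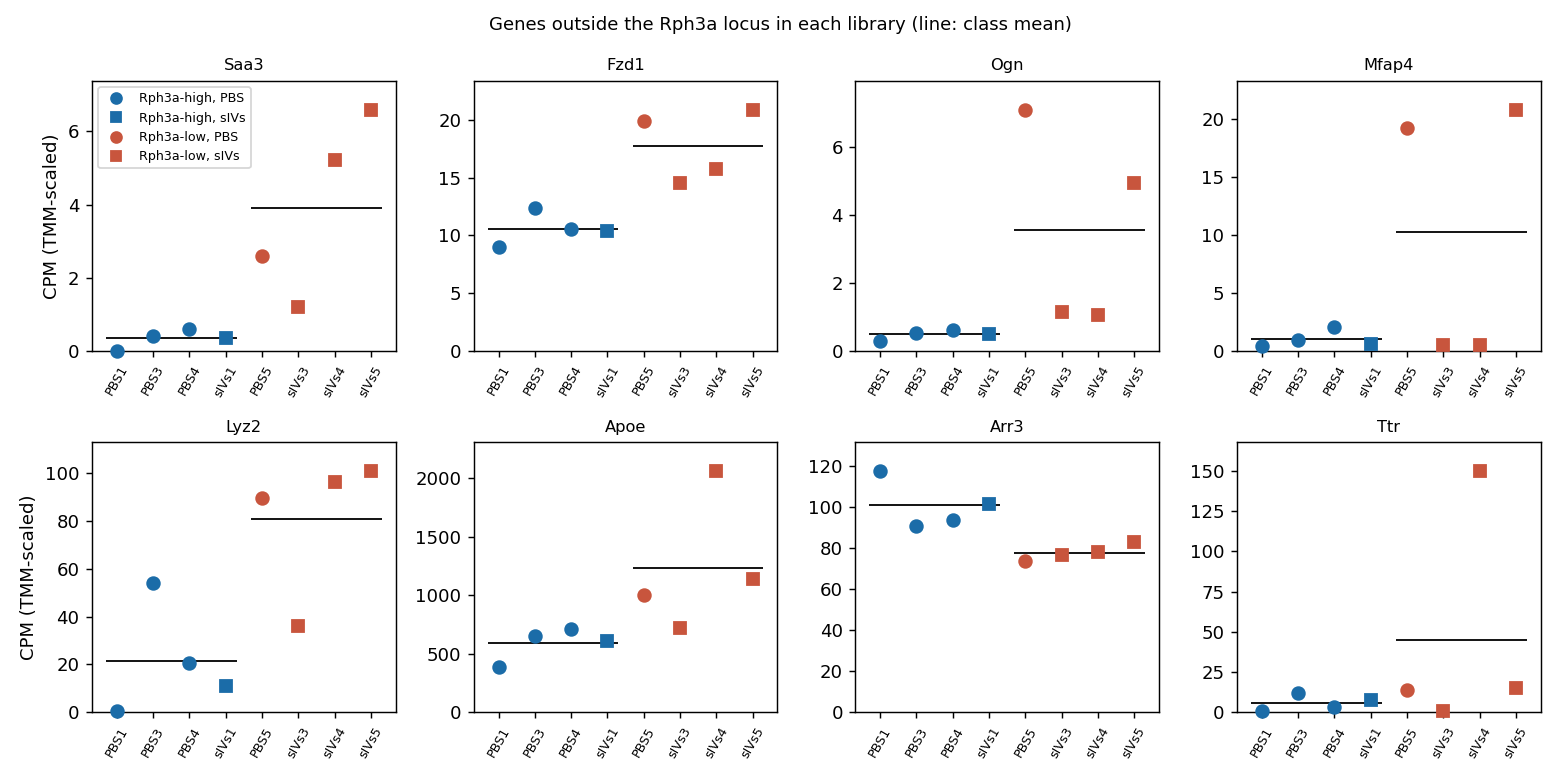
Level of 8 genes outside the locus in each library (y axis, TMM-scaled CPM, linear from 0; x axis, library; colours, symbols and lines as for the Rph3a and Oas1 levels). Saa3, Fzd1, Ogn, Apoe and Arr3 have classes without overlap, Mfap4 is high in the 2 libraries numbered 5, Lyz2 and Ttr overlap, and Ttr is highest in sIVs replicate 4 at 150 CPM.

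Partners of rabphilin 3A did not pass the test. Of 49 genes tested of Rab3- and Rab27-dependent exocytosis, 24 had a positive and 25 a negative log2 difference, with a median of -0.01 and 0 past the threshold; 3 were higher and 1 lower at an unadjusted p under 0.05 (6.12% and 2.04%, near the 4.55% and 2.38% of all genes). Rab3a, the vesicle GTPase that rabphilin binds, stood at 289, 294, 311 and 308 CPM in Rph3a-high and at 294, 295, 466 and 329 CPM in Rph3a-low libraries (log2 difference 0.20 ± 0.15, SE). Rab27b, another Rab partner, had 11.9 ± 1.90 and 11.7 ± 1.89 CPM (SD, n = 4 each), a log2 difference of -0.03 ± 0.18 (SE). Rab3il1, an exchange factor gene for Rab3A, was the single member without overlap, at 4.68, 5.95, 6.71 and 5.36 CPM and at 7.81, 7.87, 9.48 and 8.58 CPM (log2 difference 0.57 ± 0.17, SE; edgeR adjusted p = 0.539). That 1 member is 2.04% of the 49, near the 2.13% of all genes that were higher without overlap. Mlph, the melanophilin gene, had a log2 difference of 1.28 ± 0.50 (SE) at no more than 2.10 CPM in any library.

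The 17 tested genes of NMDA receptors and the postsynaptic density had a median of -0.19 (-0.04 without sIVs replicate 4), with 4 positive and 13 negative, and 0 at an unadjusted p under 0.05. Dlg4, the PSD-95 scaffold gene, stood at 1088, 727, 769 and 983 CPM in Rph3a-high and at 648, 862, 723 and 703 CPM in Rph3a-low libraries (log2 difference -0.28 ± 0.16, SE). Grin2c, an NMDA receptor subunit gene, had a log2 difference of 0.31 ± 0.18 (SE). Their edgeR adjusted p was 0.539.

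Among the neuronal lists and the Müller glia list, none had a member past the threshold. Bipolar, amacrine, horizontal and ganglion cell genes had medians of -0.01, 0.06, 0.03 and 0.20, and the 15 cone genes one of 0.07, against 0.02 for all genes. Without sIVs replicate 4 these medians were, in the same order, -0.03, 0.04, 0.17, 0.04 and 0.04, against -0.003 for all genes. Of 26 rod genes, 21 had a negative log2 difference (median -0.30, and -0.38 without sIVs replicate 4), 2 of them at an unadjusted p under 0.05 (7.69%, against 2.38% lower among all genes) and 0 without overlap. Summed over the rod list, PBS replicate 1 and sIVs replicate 1 stood highest, at 84799 and 87146 CPM, and PBS replicate 3 lowest, at 46013 CPM. The 15 cone genes went both ways, with 11 positive and 4 negative. At an unadjusted p under 0.05, 2 were higher and 2 lower (13.3% each, against 4.55% and 2.38% of all genes). Without overlap, 1 was higher and 2 were lower (2.13% and 1.86% of all genes). Arr3, the cone arrestin gene on chromosome X, had no overlap, at 117, 90.6, 93.5 and 101 CPM in Rph3a-high and at 73.6, 76.5, 77.8 and 82.9 CPM in Rph3a-low libraries (log2 difference -0.37 ± 0.10, SE; edgeR adjusted p = 0.539). The cone opsin gene Opn1sw went the other way, with overlapping classes (log2 difference 0.18 ± 0.15, SE). Of 16 Müller glia genes, 15 were positive (median 0.32, and 0.29 without sIVs replicate 4). At an unadjusted p under 0.05, 5 were higher (31.25%, against 4.55% of all genes). The lipid carrier gene Apoe was the 1 member without overlap (6.25%, against 2.13% higher among all genes). Its levels were 383, 656, 711 and 609 CPM in Rph3a-high and 1007, 720, 2060 and 1141 CPM in Rph3a-low libraries. Arr3 and Apoe were picked after their values were seen.

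**Figure D5:**
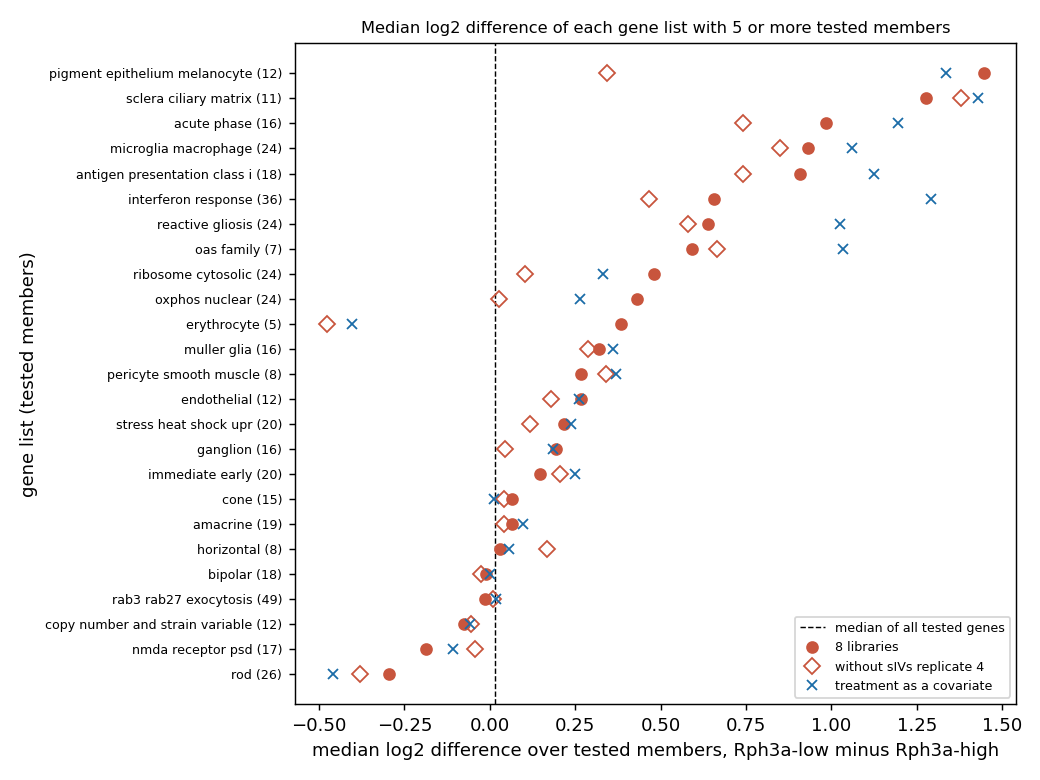
Median log2 difference, Rph3a-low minus Rph3a-high (x axis), over the tested members of each gene list (y axis, with the number of members), for 8 libraries, without sIVs replicate 4 and with the treatment label as a covariate; the dashed line is the median of all tested genes. Inflammatory, microglial and matrix lists lie between 0.59 and 1.28 in the fit of 8 libraries, the list of Rab3 and Rab27 exocytosis lies at -0.01, and the pigment epithelium list moves from 1.45 to 0.34 without sIVs replicate 4.

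The other named genes with the smallest p or the widest gap between the classes were each at an edgeR adjusted p of 0.539. Fzd1, a Wnt receptor gene on chromosome 5 but 116182 kb from Rph3a, stood at 8.98, 12.4, 10.5 and 10.4 CPM in Rph3a-high and at 19.9, 14.5, 15.8 and 20.9 CPM in Rph3a-low libraries (log2 difference 0.75 ± 0.17, SE). The long non-coding 6030443J06Rik, 98133 kb from Rph3a on the same chromosome, was lower, at 3.39, 2.66, 2.75 and 2.86 CPM and at 1.38, 1.63, 0.785 and 1.03 CPM (log2 difference -1.27 ± 0.27, SE). Tnfaip8l2, which encodes a regulator of immune homeostasis, had 0.943 ± 0.175 CPM in Rph3a-high and 2.44 ± 0.640 CPM in Rph3a-low libraries (SD, n = 4 each), which is a log2 difference of 1.35 ± 0.29 (SE). 1700047I17Rik2, a protein-coding gene on chromosome 12, had 7.46 ± 0.674 and 4.20 ± 0.730 CPM (log2 difference -0.83 ± 0.18, SE). Log2 differences were 0.92 for the long non-coding AC160759.1, -0.89 for the unclassified Gm43857, -1.42 for the unclassified Gm44280 and -0.90 for the antisense Gm16299. They were 1.45 and 1.32 for the pseudogenes Gm13341 and Gm16433, whose reads can be shared with parent genes.

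Among protein-coding genes with a mean of at least 1 CPM, 315 were higher and 210 lower in Rph3a-low libraries without overlap. The log2 difference exceeded 1 in size for 35 of the former and 2 of the latter. Over all 17003 tested genes, 362 (2.13%) were higher and 316 (1.86%) lower without overlap. The log2 difference exceeded 1 in either direction for 422 of the 17003 (2.48%), with or without overlap. Shares of the protein-coding genes were not computed, so their counts are a description only. After Saa3, Ogn, Oas1c and Cd74, the next higher by log2 difference was Crhbp, the gene of corticotropin-releasing hormone binding protein, at 2.26, 2.77, 2.95 and 2.72 CPM and at 19.9, 3.54, 3.53 and 22.2 CPM, with both libraries numbered 5 high. Slc11a1, a phagosomal metal transporter gene of macrophages, stood at 0.528, 2.66, 1.61 and 1.00 CPM and at 4.50, 3.19, 3.01 and 6.18 CPM. Ifitm2, an interferon-induced membrane protein gene, stood at 1.36, 3.58, 2.95 and 1.00 CPM and at 4.32, 5.10, 8.37 and 6.66 CPM. The lower genes past that size were Ttc21a, at 5.88, 3.81, 4.49 and 6.58 CPM and at 2.94, 2.98, 0.850 and 2.27 CPM, and Gm6525. Their log2 differences were -1.20 and -1.11, and -0.92 and -0.73 without sIVs replicate 4. The classes of Gm6525 lay only 0.002 apart in log2 CPM. These genes were picked after their values were seen.

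The order shown by Rph3a and Oas1c, with PBS replicate 3 between the other Rph3a-high libraries and all Rph3a-low ones, was looked for over all genes after it had been seen. It was present in 169 genes with Rph3a-low highest (0.994% of those tested) and in 142 with Rph3a-low lowest (0.835%). Of these, 1 and 1 lay within 5 Mb of Rph3a, where 149 genes were tested. The 1 with Rph3a-low highest is Oas1c itself, from which the order was read, so its presence was fixed in advance.

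The class difference was also compared between treatment labels, with an interaction term in the fit. Of 17003 genes, 0 (0%) passed and 106 (0.623%) had an unadjusted p under 0.05; the lowest edgeR adjusted p was 1.00. Each label held 1 library of its rarer class, which was assumed to vary like the others, so the comparison has little precision.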

How the data were processed

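RNA sequencing of 8 mouse retina libraries was used as deposited. The authors deposited raw counts per gene for 54532 genes, with positions, and FPKM values per gene; per the submitters' processing notes, reads were placed on mm10. Which aligner and counter made the table, and whether counting used strand, is not given in the sources used here. The columns carried the sample titles, which give treatment and replicate number. The rule for the classes, the gene lists and the tests were chosen with earlier results of these data known. The rule was applied to counts over the column total, and Rph3a was then left out of every test. Genes kept by filterByExpr (17003) were given TMM factors and entered the quasi-likelihood test of edgeR 4.0.16 (R 4.3.3), with class as the only term, two-sided, Benjamini-Hochberg at 0.05. Standard errors are the absolute log2 difference over the square root of F. Overlap was judged on log2 CPM with a prior count of 2.

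Alternatives used DESeq2 1.42.0, limma 3.58.1 on voom values and on log2(FPKM + 1) and log2(FPKM + 0.1), other scalings and filters, a treatment covariate, a replicate block and left-out libraries. Library properties were compared by exact permutation (scipy 1.17.1). Gene lists were described by counts and medians only. Gene names came from the deposited table, and 78 of 80 genes looked up had the same position in GENCODE M21. All library pairs within a treatment label differed beyond sampling noise (chi-square over degrees of freedom of at least 6.16). The test was first run on simulated counts.

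The named genes were Rph3a, Oas1c and Saa3, the 8 genes of widest gap at a mean of at least 1 CPM, the 2 members of smallest p in the exocytosis, NMDA receptor, Oas and acute-phase lists and, since fewer than 10 genes passed, the 10 of smallest p; parts of the rule for genes past the threshold named none. Some items are not reported here.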

Additional observations from a re-analysis of the deposited data

Results flagged for a closer look

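In 2 of 50 groups of 4 libraries looked at, the extreme library lay far from the other 3 (gap over range above the Dixon critical value); chance gives about 1 in 20. Oas1c in PBS replicate 3 was at 31.9 CPM, against 0.604 to 2.75 CPM in the other Rph3a-high libraries. The antisense transcript Gm16299 in sIVs replicate 1 was at 4.08 CPM, against 2.87 to 2.95 CPM in the other Rph3a-high libraries.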

How the results depend on the processing

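Of 19 settings tried, 15 called 0 genes past the adjusted threshold. DESeq2 called 2 (Gm42656 and Saa3), of which 1 lay within 5 Mb of Rph3a and 1 elsewhere. limma-voom and limma on log2(FPKM + 0.1) called 1 each, in both cases Gm42656 within 5 Mb. Leaving out 1 library at a time gave 0 to 1 calls, 0 to 1 within 5 Mb and 0 to 0 elsewhere; the 1 call was Oas1c without PBS replicate 3. Genes at an unadjusted p under 0.05 numbered 2143 with no filter on low counts, 2636 with limma-voom, 639 without both PBS replicate 1 and sIVs replicate 4, and 436 to 2837 with 1 library left out; the cause was not tested.

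Of 376 values of 20 named genes under alternatives, 374 kept their direction. The replicate block reversed the other 2, Dlg4 (0.0783) and Oas3 (-0.20), and lowered Ogn to 0.95, Mlph to 0.09, Cebpb to 0.80 and Fzd1 to 0.41. With the block 0 genes passed and 876 had an unadjusted p under 0.05. Same-numbered libraries had correlated deviations of 0.596, 0.0251, 0.228 and 0.513 for numbers 1, 3, 4 and 5, so for 1 number the correlation was too low to treat the numbers as pairs, while the other 3 numbers each correlated best with themselves. Since both libraries numbered 1 and both numbered 5 share a class, the block rests on numbers 3 and 4, where class and treatment coincide. No scaling moved the median log2 difference of all genes by more than 0.1.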
